A study of Mus musculus with 4 samples.

Results

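Activity-induced immediate early genes are the genes that neurons switch on within minutes of strong synaptic input, before any new protein is made. The set described here holds 39 genes listed under this name, out of 26328 genes listed in at least 1 sample. Whether each of them is switched on this fast, or in neurons only, was not tested. The 39 were chosen by symbol from general knowledge of the response, with earlier results of these data known, and matched to their Ensembl gene IDs. RNA-seq was performed on poly(A) RNA from the hippocampus of male C57BL/6 mice, with 2 samples of wild-type (WT) littermates and 2 samples of Lsd1 knock-in (KI) mice. In the KI mice (genotype Lsd1 SA/SA), the serine of the histone demethylase LSD1 that PKCα phosphorylates is replaced by alanine, and both groups otherwise share strain, sex and tissue. An age of 8 to 15 weeks is given for the mice of the behavioral experiments. The sources used here do not say whether the sequenced mice had performed a task, at what hour the tissue was taken, or whether a sample is 1 animal or a pool.

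Calcium entry through synaptic receptors activates kinases such as CaMKIV, which act on transcription factors already bound to DNA, among them CREB, SRF and MEF2. These factors turn on a first wave of genes, many of which encode transcription factors themselves (the FOS, JUN, EGR, NR4A and NPAS4 proteins), while others act directly at the synapse (Arc) or shut the signal down again (the DUSP phosphatases). In the hippocampus, exploration and fear conditioning induce these genes, and Fos and Arc are widely used to mark recently active neurons.

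The stretches before the transcription starts of 4 members are shown here to let the elements searched for be seen in place, and because the 4 genes stood on both sides of the KI to WT comparison: Fos and Gadd45b were higher, and Jun and Plk2 lower, in each KI sample than in any WT sample. Each is written 5′ to 3′ on the strand of the gene (RefSeq starts, GRCm38.p6) and ends where the transcript of RefSeq or GENCODE begins. Capitals mark TGACGT or TGACGTCA (a cAMP response element, CRE, bound by CREB), CACGTG (an E-box), TATAAA, and the MEF2 site, searched on both strands. The TGACGT search includes every TGACGTCA.
Fos, chr12:85473640-85473889, plus strand: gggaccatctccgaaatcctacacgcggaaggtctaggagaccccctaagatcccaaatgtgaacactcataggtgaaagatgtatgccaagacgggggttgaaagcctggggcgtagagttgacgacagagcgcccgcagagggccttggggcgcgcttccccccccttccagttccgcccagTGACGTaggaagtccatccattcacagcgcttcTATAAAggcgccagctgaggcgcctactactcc
Gadd45b, chr10:80929841-80930072, plus strand: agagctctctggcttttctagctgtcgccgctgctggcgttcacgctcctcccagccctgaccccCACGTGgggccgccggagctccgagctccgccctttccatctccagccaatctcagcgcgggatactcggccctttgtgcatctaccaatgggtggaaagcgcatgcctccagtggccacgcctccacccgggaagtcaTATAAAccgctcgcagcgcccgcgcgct
Jun, chr4:95052223-95052472, minus strand: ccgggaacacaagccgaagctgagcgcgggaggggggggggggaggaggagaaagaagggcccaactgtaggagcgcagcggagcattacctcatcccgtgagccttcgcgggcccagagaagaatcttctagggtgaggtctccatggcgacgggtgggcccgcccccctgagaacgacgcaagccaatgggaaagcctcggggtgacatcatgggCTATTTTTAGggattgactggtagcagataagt
Plk2, chr13:110394794-110395043, plus strand: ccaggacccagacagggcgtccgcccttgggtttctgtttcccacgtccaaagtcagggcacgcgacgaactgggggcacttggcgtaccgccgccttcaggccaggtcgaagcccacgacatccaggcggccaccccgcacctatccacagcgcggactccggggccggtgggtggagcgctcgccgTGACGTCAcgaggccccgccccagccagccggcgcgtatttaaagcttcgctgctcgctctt

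The first base of the match lay 66 bases before the RefSeq start in Fos (TGACGT) and 62 bases before it in Plk2 (TGACGTCA). The MEF2 site of Jun began 33 bases and the E-box of Gadd45b 185 bases before the start. Windows from 250 bases before to 50 bases after the start were held for 31 of the 39 members, all but Arc, Egr1, Egr3, Klf10, Nptx2, Ier2, Sik1 and Trib1. TGACGT was found in 15 of these 31 members (48.4%), against 8.37% of the 27025 genes with a window. TGACGTCA was found in 5 of the 31, in Arl4d, Btg2, Dusp1, Maff and Plk2, against 2.03% of all genes. The MEF2 site was found in 16.1% of the members and 3.70% of all genes, CACGTG in 22.6% and 8.09%, and the CArG box, the site of SRF, in Dusp5 and Egr2, which is 6.45% of the members, against 1.81% of all genes. TATAAA stood in 19.4% of the members and 15.7% of all genes, and TGACTCA, a site bound by AP-1 itself, in 3.23% (Csrnp1) and 5.95%. Genes with several starts have several windows, so these shares are descriptions of the letters and not of binding. Sites outside the windows, and variants of the searched letters, were not searched, so a gene without a match may still hold such an element. TGACGT stood in 4 of the 6 members with a window that were higher in both KI samples (Rgs2, Npas4, Fos and Plk3), in 1 of the 5 that were lower (Plk2) and in 10 of the 20 whose groups overlapped. The window of Npas4 is not printed, because GENCODE places it inside the first exon.

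Levels were deposited in RPKM, the reads of a gene per kb of its exons, divided by the sample's total of mapped reads, which allows genes to be compared per length. The whole-read steps of the values gave an estimated depth of 8830000 mapped reads in WT replicate 2 and between 13410000 and 14950000 in the other 3 samples. Kdm1a, which encodes LSD1 and whose substitution a gene-level value cannot show, was at 11.6 and 11.2 RPKM in WT and at 10.97 and 11.2 RPKM in KI. The hippocampal identity of the tissue could be seen in the dentate marker C1ql2 (from 30.7 to 44.0 RPKM over the 4 samples) and the CA1 marker Fibcd1 (from 33.5 to 34.9 RPKM). Another CA1 marker, Wfs1, was less even, at 42.2 and 41.2 RPKM in WT and at 28.6 and 50.9 RPKM in KI.

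All 39 members had reads in every sample, and their levels spanned more than 2 orders of magnitude. The highest mean level was that of Plk2, followed by Arc, Egr1, Egr3 and Jun, and the lowest those of Maff, Atf3 and Egr2. Summed over the 39 genes, the level was 509.9 and 481.5 RPKM in WT replicates 1 and 2, and 521.9 and 506.0 RPKM in KI replicates 1 and 2. The KI sum thus lay above both WT sums in replicate 1 only, and the groups overlapped. The plot of RPKM by sample shows every member.

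**Figure D1:**
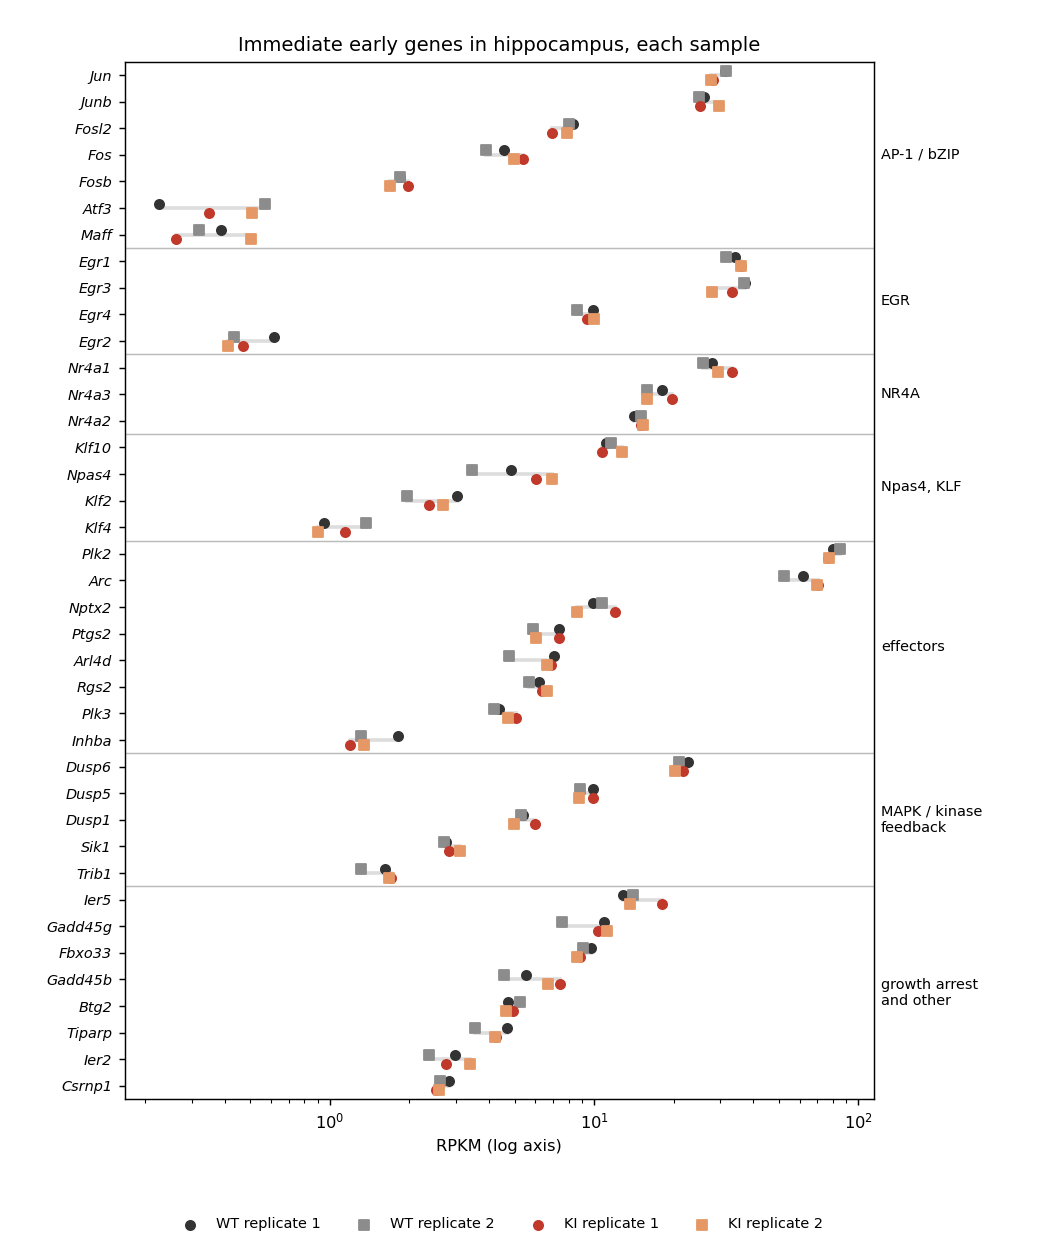
RPKM of the 39 immediate early genes (log axis) in each of the 4 hippocampal samples, grouped by the role of the gene and ordered by mean level within a role. Black and grey points are WT replicates 1 and 2, red and orange points KI replicates 1 and 2, and the pale line spans the 4 values. Plk2 and Arc were the highest members, and Npas4, Gadd45b, Arc and Fos had both KI points to the right of both WT points.

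Groups were compared with limma on log2(RPKM + 1) for the 18436 genes that reached 0.5 RPKM in 2 or more samples. This scale understates the change of low genes. Of the members, 37 passed this filter, and Egr2 and Maff did not. A gene was called if its adjusted p was below 0.1 and the groups differed 1.2-fold or more. By this rule 0 of the 37 members were called, and the share called among all genes tested was 0%. The study's own test, on counts, did report changed genes. The smallest adjusted p of a member was 0.436, for Gadd45b (limma). At an unadjusted limma p under 0.05 there were 5 members of 37, against 9.62% of all genes tested. Of these, 3 had higher levels in KI (Npas4, Gadd45b and Arc), against 6.3% of all genes, and 2 had lower levels (Egr3 and Jun), against 3.33%. The log2 fold changes of these 5 members with a sample left out are given below. With 2 samples against 2, the smallest p an exact permutation test of a single gene can give is 0.333.

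The KI values exceeded both WT values in 10 of the 37 tested members, against 24% of all genes tested, and were below them in 6, against 18.1%. After quantile normalization the counts were 8 and 7, and the shares of all genes 19.2% and 22.9%. The 10 were Npas4, Gadd45b, Arc, Fos, Nr4a1, Plk3, Trib1, Egr1, Rgs2 and Sik1, and the 6 were Egr3, Jun, Fosl2, Plk2, Fbxo33 and Csrnp1. With a ratio of mean RPKM of at least 1.2 as well, 4 members were higher (Npas4, Gadd45b, Arc and Fos), against 10.3% of all genes, and 1 was lower (Egr3), against 5.32%. With all 4 samples, the members' shares were thus near those of all genes in both directions. The median log2 fold change (KI minus WT) was 0.04 over the 37 members and 0.01 over all genes tested, and 20 of the 37 members differed by less than 0.1. With 3 samples fewer values have to be apart. Of the 37 members, 19 were higher without WT replicate 1, against 38.1% of all genes, and 16 without KI replicate 1, against 39.6%. Without WT replicate 2, 13 of the 37 were lower, against 31.0% of all genes, and 13 also without KI replicate 1, against 30.5%. As each of the 4 samples was left out, between 37.9% and 39.6% of all genes were higher, and between 30.5% and 33.8% were lower. The median of the members was 0.12 without WT replicate 1, 0.020 without WT replicate 2 and 0.065 without KI replicate 1.

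**Figure D2:**
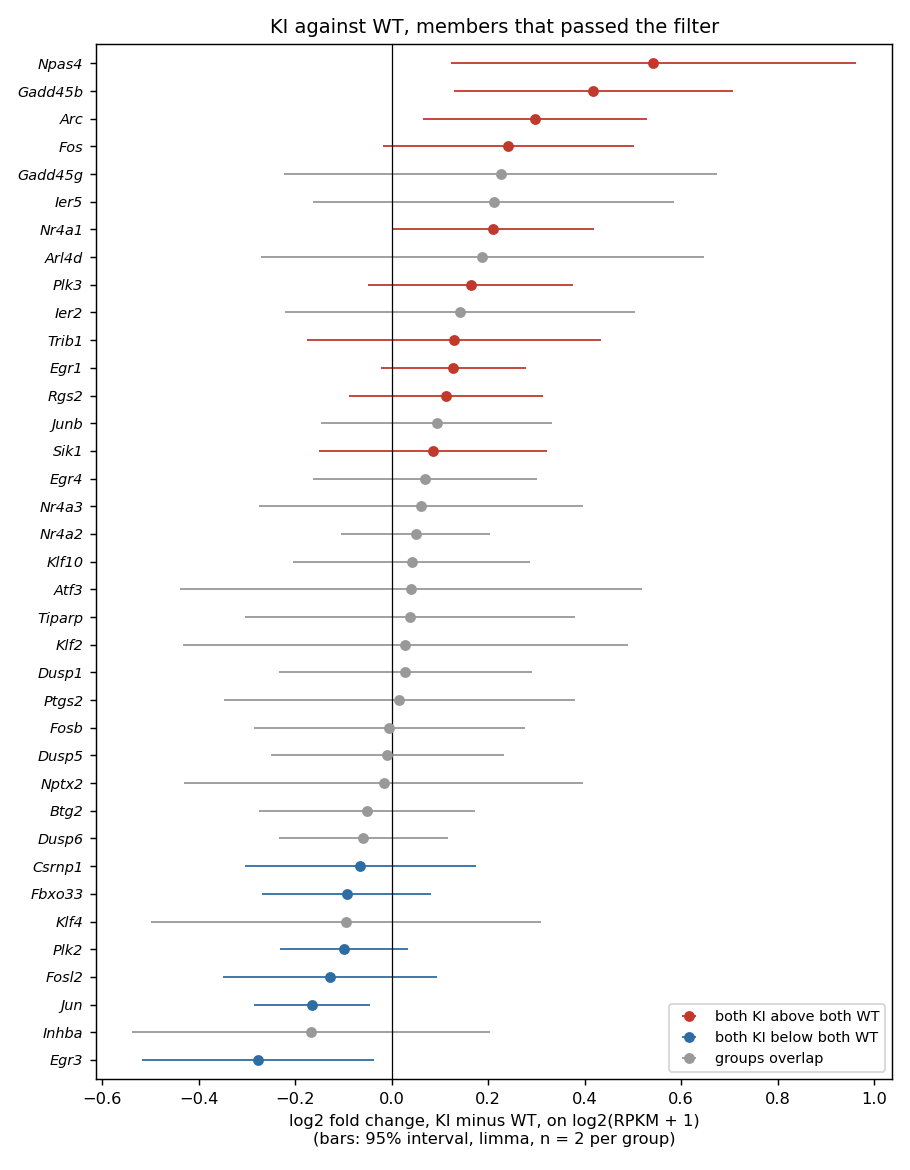
Log2 fold change (KI minus WT, on log2(RPKM + 1)) of the 37 members that passed the filter, with the 95% interval of limma (n = 2 samples per group). Red marks the 10 members whose KI values exceed both WT values, blue the 6 with KI below WT, and grey those whose groups overlap. The estimates run from -0.28 for Egr3 to 0.54 for Npas4, and the intervals of Npas4, Gadd45b, Arc, Jun and Egr3 do not include 0 before adjustment for the number of genes.

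Npas4 (ENSMUSG00000045903, chromosome 19, 4984355 to 4990316 in GRCm38) encodes a transcription factor that is made in neurons in response to depolarization and shapes their inhibitory inputs. It was at 4.87 and 3.46 RPKM in the WT samples and at 6.00 and 6.92 RPKM in the KI samples, on about 270, 126, 357 and 428 reads. The groups did not overlap, and the WT samples differed more between themselves than the KI samples did. The WT mean was 4.16 ± 0.998 and the KI mean 6.46 ± 0.647 RPKM (SD, n = 2 each), a ratio of 1.55, which was the widest of the members. Its log2 fold change was 0.54 (95% interval from 0.12 to 0.96; adjusted p = 0.476 from limma), and it ran from 0.34 without WT replicate 2 to 0.74 without WT replicate 1.

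Klf2, Klf4 and Klf10, which encode zinc finger factors of the Krüppel-like family, stood beside Npas4 as inducible factors, and their groups overlapped. Klf10, the highest of them, was at 11.1 and 11.6 RPKM in WT and at 10.8 and 12.7 RPKM in KI (log2 fold change 0.04, 95% interval from -0.20 to 0.29). Its lowest and its highest value were both in KI samples. Klf2, known for its part in blood vessel endothelium, lay between 1.96 and 3.03 RPKM, with both ends in WT samples. Klf4 lay between 0.899 and 1.37 RPKM on 37 to 50 reads. Of 7 endothelial markers, 3 were higher in both KI samples and 2 were lower. Their summed level was 44.3 and 50.5 RPKM in WT and 48.4 and 49.4 RPKM in KI, and none was at 0. Their part in the level of Klf2 was not tested.

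Arc (ENSMUSG00000022602, chromosome 15, 74669083 to 74672570) encodes a protein of the postsynaptic side that promotes the removal of AMPA receptors from the membrane. It was at 61.7 and 52.3 RPKM in WT and at 70.1 and 69.8 RPKM in KI. The KI samples were nearly equal and both lay above the higher WT sample, while WT replicate 2 was the lowest. The means were 57.0 ± 6.64 and 70.0 ± 0.215 RPKM (SD, n = 2 each), a ratio of 1.23, and the log2 fold change was 0.30 (95% interval from 0.07 to 0.53; adjusted p = 0.476 from limma). Without WT replicate 2 it was 0.18 and without WT replicate 1 it was 0.41. In this bulk tissue, more Arc RNA per cell and more cells with Arc cannot be told apart, and the same holds for every other member.

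Plk2 (ENSMUSG00000021701, chromosome 13, 110395046 to 110400844), a kinase of the polo-like family that takes part in the homeostatic weakening of synapses, was the highest member. It was at 79.9 and 84.9 RPKM in WT and at 76.5 and 77.2 RPKM in KI. It was lower in each KI sample than in either WT sample, with a log2 fold change of -0.10 (95% interval from -0.23 to 0.03; adjusted p = 0.587 from limma). Arc and Plk2, the 2 most abundant members, thus stood on opposite sides. The other effectors were at lower levels. Plk3, a related kinase, ran from 4.16 RPKM in WT to 5.08 RPKM in KI, and Rgs2, which dampens signalling through G proteins, from 5.68 RPKM in WT to 6.64 RPKM in KI. In both genes the KI values lay above the WT values.

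The groups of the remaining effectors overlapped. Nptx2, a secreted pentraxin that clusters AMPA receptors, had both its lowest and its highest value (8.63 and 12.0 RPKM) in KI. Ptgs2, the inducible cyclooxygenase COX-2, lay between 5.88 and 7.34 RPKM, with a high and a low sample in each group. The small GTPase gene Arl4d lay between 4.75 and 7.07 RPKM, with WT replicate 2 apart below the other 3 samples. Inhba, which encodes the activin A subunit, lay between 1.19 and 1.81 RPKM, highest in WT replicate 1. Of these 8 effectors, 3 were higher and 1 was lower in both KI samples.

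Fos (ENSMUSG00000021250, chromosome 12, 85473890 to 85477273), which encodes c-FOS, a subunit of the dimeric AP-1 factor, was at 4.56 and 3.90 RPKM in WT and at 5.38 and 4.98 RPKM in KI, on 144, 81, 182 and 175 reads. The lowest KI value was above the highest WT value. The ratio of means was 1.22 and the log2 fold change 0.24 (95% interval from -0.02 to 0.50; adjusted p = 0.527 from limma), or 0.15 without WT replicate 2. Jun (ENSMUSG00000052684, chromosome 4, 95049034 to 95052222), a partner of FOS in AP-1, lay on the other side, with 31.4 and 31.5 RPKM in WT and 28.1 and 27.7 RPKM in KI. Within each group its values were close together, with a WT mean of 31.4 ± 0.0721 and a KI mean of 27.9 ± 0.282 RPKM (SD, n = 2 each). Its log2 fold change was -0.16 (95% interval from -0.28 to -0.04; adjusted p = 0.460 from limma). Jun stayed between -0.17 and -0.15 as each sample was left out. An antisense gene, Junos, shares 7.28% of its exon length, and the counting is not stated to use strand. Opposite-strand genes share up to 7.52% of the exon length of Junb, Plk3, Tiparp and Csrnp1. Jun lies 41.5 Mb from Kdm1a on chromosome 4, which also holds Plk3 at 19.4, Klf4 at 81.0 and Nr4a3 at 88.5 Mb from it.

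The other factors of this family differed in level more than in genotype. Junb was at 25.0 to 29.6 RPKM and overlapped between the groups, with KI replicate 2 alone above the rest. Fosl2, at 6.92 to 8.35 RPKM, was lower in both KI samples, though the higher KI value of 7.89 RPKM lay just under the lower WT value of 8.01 RPKM. Fosb, whose short form accumulates with repeated activity, lay between 1.69 and 1.98 RPKM, with both ends in KI. Atf3 and Maff, bZIP genes that respond to stress and injury, were at 0.225 to 0.571 and at 0.263 to 0.505 RPKM, on 7 to 20 reads, and their groups overlapped. The interval of the log2 fold change of Atf3 ran from -0.44 to 0.52. Of the 7 factors, 1 was higher (Fos) and 2 were lower (Jun and Fosl2) in both KI samples.

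Egr1 (ENSMUSG00000038418, chromosome 18, 34859823 to 34864984), a zinc finger factor required for late long-term potentiation and long-lasting memory, was at 34.1 and 31.6 RPKM in WT and at 35.9 and 36.0 RPKM in KI. KI was above WT in every pairing of samples, but the difference was small, with a log2 fold change of 0.13 (95% interval from -0.02 to 0.28; adjusted p = 0.556 from limma). Egr3 (ENSMUSG00000033730, chromosome 14, 70077203 to 70082614), a related factor that synaptic activity induces, was at 37.3 and 37.0 RPKM in WT and at 33.2 and 27.9 RPKM in KI. The KI samples lay below both WT samples and differed between themselves. The means were 37.1 ± 0.221 and 30.6 ± 3.73 RPKM (SD, n = 2 each), 1.21 times higher in WT, and the log2 fold change was -0.28 (95% interval from -0.52 to -0.04; adjusted p = 0.490 from limma), or -0.16 without KI replicate 2.

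By level, Egr1 and Egr3 overlapped over the 4 samples, Egr4 followed at 8.58 to 10.01 RPKM, and Egr2, better known from myelinating Schwann cells, was under the filter at 0.413 to 0.614 RPKM. The groups overlapped for Egr4 and Egr2. The family thus held 1 member on either side and 2 with overlapping groups.

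Nr4a1 (ENSMUSG00000023034, chromosome 15, 101254269 to 101274795), an orphan nuclear receptor induced by CREB, was at 28.0 and 25.8 RPKM in WT and at 33.1 and 29.5 RPKM in KI. The groups did not overlap, with a ratio of means of 1.16 and a log2 fold change of 0.21 (adjusted p = 0.516 from limma). Nr4a3 had a high and a low sample in each group, with 18.1 and 15.8 RPKM in WT and 19.8 and 15.8 RPKM in KI. Nr4a2, known for its part in dopamine neurons, lay between 14.2 and 15.3 RPKM, the narrowest range of the 3 receptors, and its groups overlapped.

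Several members limit the response. Dusp6 (ENSMUSG00000019960, chromosome 10, 99263231 to 99267489), a cytoplasmic phosphatase of MAP kinases, was at 22.7 and 21.03 RPKM in WT and at 21.6 and 20.3 RPKM in KI (log2 fold change -0.06, 95% interval from -0.23 to 0.12). Dusp5, a nuclear phosphatase of the same family, lay between 8.76 and 9.92 RPKM and Dusp1, which acts on JNK and p38, between 4.99 and 5.96 RPKM. In all 3 phosphatase genes the groups overlapped. The interval of Dusp6 leaves room for differences up to -0.23 on this scale. An antisense gene covers 22.1% of the exon length of Dusp5, so its reads may be shared.

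Sik1, a kinase that keeps the CREB coactivators out of the nucleus, was at 2.76 and 2.71 RPKM in WT and at 2.84 and 3.10 RPKM in KI, and Trib1, a pseudokinase, was at 1.62 and 1.31 RPKM in WT and at 1.71 and 1.68 RPKM in KI. Both were higher in both KI samples by a small margin over WT replicate 1, and neither reached a ratio of 1.2.

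Gadd45b (ENSMUSG00000015312, chromosome 10, 80930073 to 80932204), a stress sensor that takes part in activity-induced DNA demethylation, was at 5.53 and 4.56 RPKM in WT and at 7.41 and 6.71 RPKM in KI, on about 118, 64, 169 and 159 reads. The gap between the groups was wider than the spread within KI and within WT, as far as 2 values show it. The means were 5.05 ± 0.687 and 7.06 ± 0.498 RPKM (SD, n = 2 each), a ratio of 1.40, and the log2 fold change was 0.42 (95% interval from 0.13 to 0.71; adjusted p = 0.436 from limma). It ran from 0.30 to 0.53 as each sample was left out. Its relative Gadd45g was at 7.53 RPKM in WT replicate 2 and between 10.4 and 11.2 RPKM in the other 3 samples, so that the groups overlapped.

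Ier5 (ENSMUSG00000056708, chromosome 1, 155096361 to 155099636), an immediate early gene linked to the heat shock factor HSF1, had 1 sample apart: it was at 12.9 and 14.03 RPKM in WT and at 18.1 and 13.6 RPKM in KI. Its log2 fold change of 0.21 was 0.02 without KI replicate 1 and 0.40 without KI replicate 2. Ier2, at 2.38 to 3.38 RPKM, Btg2, an antiproliferative gene, at 4.63 to 5.24 RPKM, and Tiparp, an ADP-ribosyltransferase gene, at 3.55 to 4.70 RPKM, overlapped between the groups. Fbxo33, a gene of an F-box protein, went from 9.06 to 9.71 RPKM in WT and from 8.64 to 8.81 RPKM in KI. Csrnp1, a nuclear protein gene, went from 2.60 to 2.83 RPKM in WT and from 2.52 to 2.59 RPKM in KI. These last 2 genes were lower in both KI samples, by less than 1.2-fold.

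Many members shared a low value in the same sample. WT replicate 2 held the lowest of the 4 values in 19 of the 37 tested members (51.4%), against 26.6% of all genes tested, and WT replicate 1 in 3 of them (8.11%), against 27.3%. The mean deviation of the 37 members from their own 4-sample mean, on log2(RPKM + 1), was 0.02 and -0.08 in WT replicates 1 and 2, and 0.05 and 0.01 in KI replicates 1 and 2, so that WT replicate 1 lay within the range of the KI samples. Over all genes tested these deviations were between -0.02 and 0.02. WT replicate 2 was lowest in all 10 members that were higher in KI. In such genes the lowest value has to be in a WT sample, and the share for all genes higher in KI is not given here. WT replicate 2 was also lowest in Gadd45g, Arl4d and Klf2, whose groups overlapped. It was also the sample with the lowest depth, whose part in this pattern was not tested. Without it, the log2 fold changes of Npas4, Gadd45b, Arc and Fos were 0.34, 0.30, 0.18 and 0.15. Their direction could not turn, because the groups of these genes do not overlap.

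**Figure D3:**
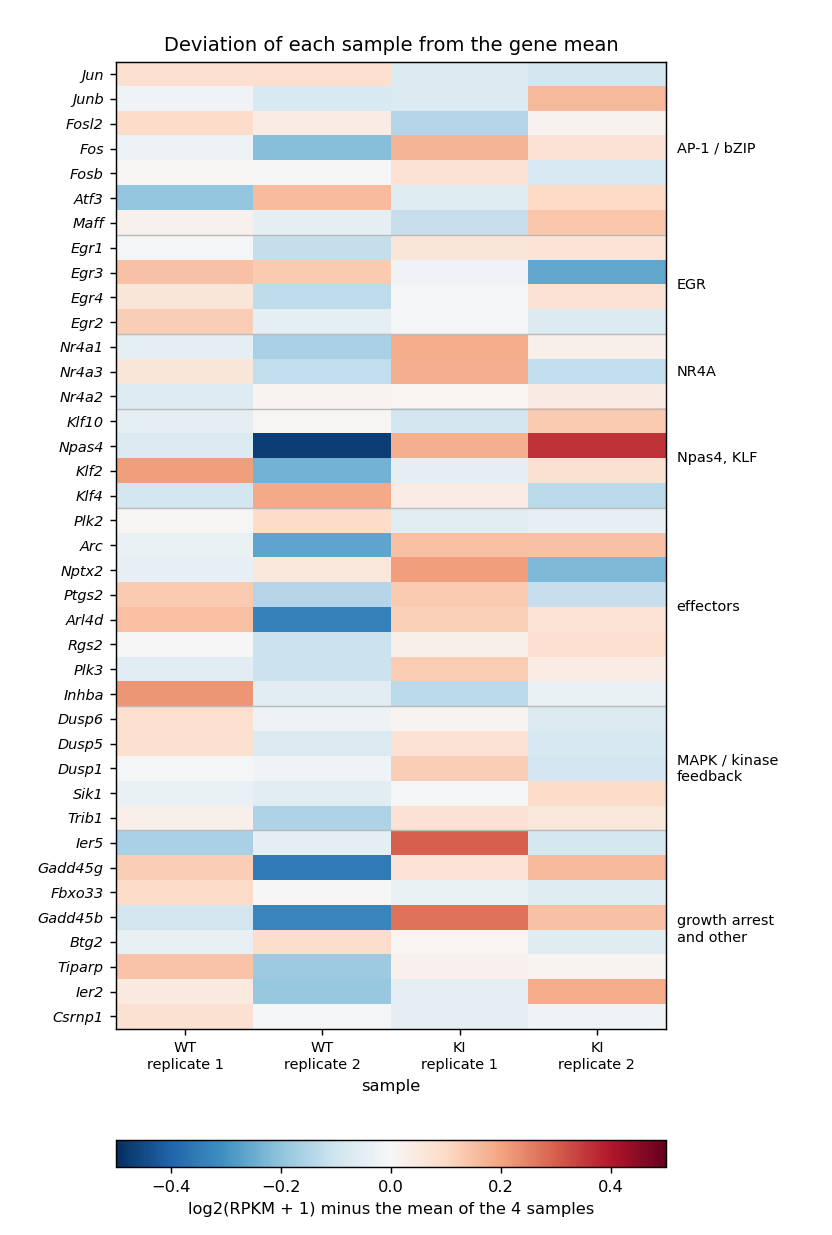
Deviation of each sample from the 4-sample mean of the gene, on log2(RPKM + 1), for the 39 members grouped by role. Red is above and blue below the mean of the gene. The darkest blue cells (Npas4, Gadd45b, Arl4d, Gadd45g) are in WT replicate 2, and the strongest red cell is Npas4 in KI replicate 2.

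The other genes of the pathway were taken from 3 further lists. Of 22 upstream regulators, all tested, 0 were called in limma, and 4 had an unadjusted p under 0.05, against 9.62% of all genes tested. Of the 4, 0 were higher and 4 were lower in KI, against 6.3% and 3.33% of all genes. In both KI samples 3 of the 22 were higher and 10 were lower (13.6% and 45.5%), against 24% and 18.1%. The median log2 fold change was -0.05. The lowest was that of Rps6ka5, the kinase MSK1 that phosphorylates CREB and histone H3, at 5.08 and 5.01 RPKM in WT and 4.37 and 4.01 RPKM in KI (log2 fold change -0.22; adjusted p = 0.506 from limma). The highest was that of Mef2c, at 19.8 and 17.8 RPKM in WT and 18.8 and 23.6 RPKM in KI, whose groups overlapped. Also lower at an unadjusted p under 0.05, and named after their values were seen, were the SRF coactivator gene Mrtfb (Mkl2), with 40.8 and 39.3 RPKM in WT and 35.3 and 35.1 RPKM in KI, and the CREB coactivator gene Crtc1, with 28.2 and 29.0 RPKM in WT and 25.7 and 25.2 RPKM in KI. Creb1 itself lay between 6.12 and 6.57 RPKM, with overlapping groups, and Srf was at 15.7 and 15.6 RPKM in WT and at 15.8 and 16.8 RPKM in KI.

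Of 17 other rapidly induced genes, all tested, 0 were called in limma, and 6 had an unadjusted p under 0.05, against 9.62% of all genes tested. Of the 6, 5 were higher and 1 was lower in KI, against 6.3% and 3.33% of all genes. The KI values exceeded both WT values in 7 of the 17 (41.2%, against 24% of all genes) and were below both in 2 (11.8%, against 18.1%). The median log2 fold change of the 17 was 0.10. Ier3, a stress-induced survival gene, was at 2.77 and 2.70 RPKM in WT and at 4.06 and 4.91 RPKM in KI, a ratio of 1.64 (log2 fold change 0.55; adjusted p = 0.353 from limma). Zfp36, whose protein degrades cytokine mRNAs, was at 1.83 and 1.33 RPKM in WT and at 2.33 and 2.58 RPKM in KI, a ratio of 1.55. Gadd45a, at 2.28 and 2.12 RPKM in WT and 3.90 and 2.77 RPKM in KI, the kinase gene Pim1 (ratio 1.44) and the stress response gene Ppp1r15a (ratio 1.21) were also higher in both KI samples. The lowest log2 fold change was -0.21, for Nfil3. None of these differences passed the adjusted threshold.

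Of 10 late response genes, which follow the first wave and encode mainly secreted and synaptic proteins, all were tested, 0 were called in limma and 0 had an unadjusted p under 0.05. In both KI samples 1 was higher and 2 were lower (10% and 20%, against 24% and 18.1% of all genes tested). The log2 fold changes ran from -0.16 (Adcyap1) to 0.11 (Vgf), with a median of 0.01. Bdnf, a target of NPAS4 and CREB, was at 7.79 and 8.05 RPKM in WT and at 7.02 and 7.81 RPKM in KI, and its groups overlapped.

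**Figure D4:**
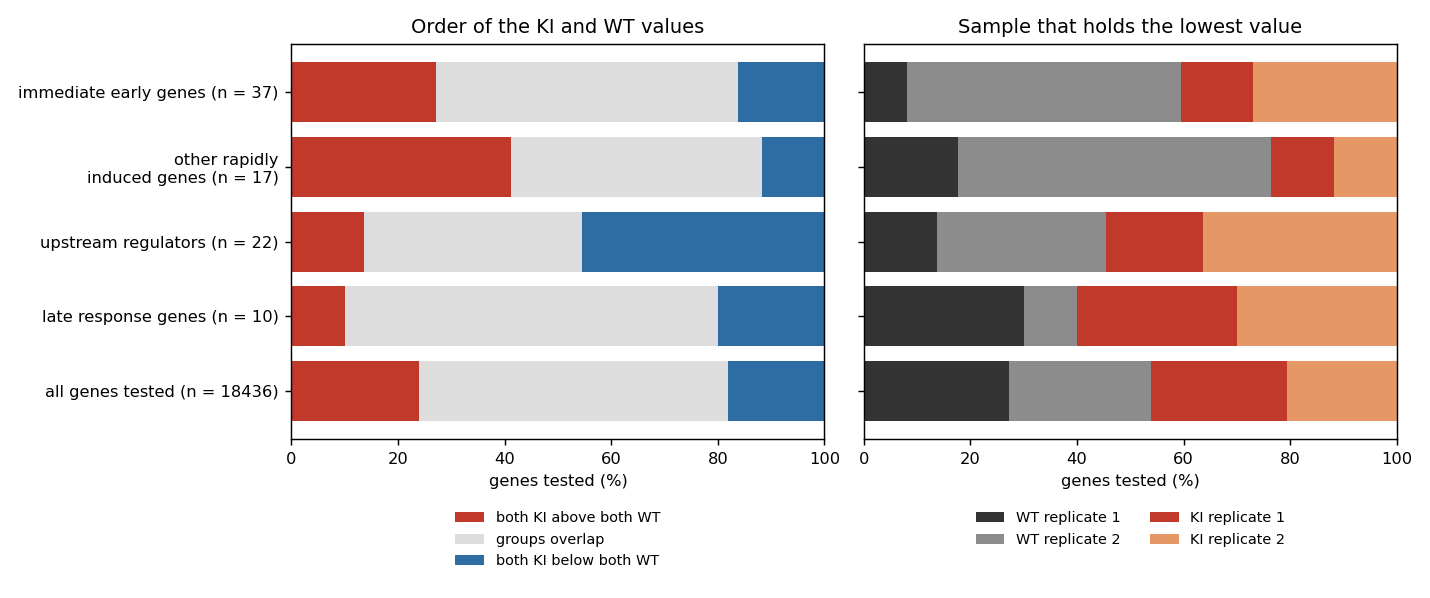
Left, the share of tested genes in each list with the KI values above both WT values (red), below both (blue) or overlapping groups (grey). Right, the share of tested genes in each list whose lowest value is in the named sample. The 37 immediate early genes had 16.2% of genes lower in KI against 18.1% of all 18436 genes, and WT replicate 2 held the lowest value in 51.4% of them against 26.6%.

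Some markers of cell types and neighbouring regions also lay apart between the groups. Of 4 dentate granule cell markers, 3 were lower in both KI samples (Prox1, C1ql2 and Dsp), and the summed level of the 4 was 93.5 and 92.4 RPKM in WT and 61.5 and 77.4 RPKM in KI. Of 3 CA1 markers, 1 was higher and 0 were lower. Their sum was 91.5 and 92.3 RPKM in WT and 79.4 and 102.8 RPKM in KI, so the KI samples differed between themselves. Of 6 neocortex markers, 4 were above and 1 was below WT in both KI samples, with a sum of 33.0 and 35.0 RPKM in WT and 39.6 and 36.5 RPKM in KI. Of 6 striatum markers, 4 were higher and 1 was lower, with a sum of 19.1 and 18.1 RPKM in WT and 22.3 and 22.6 RPKM in KI. Of 6 microglia markers, 3 were higher and 1 was lower. Of 4 excitatory neuron markers, 3 were lower (Slc17a7, Camk2a and Neurod2), and of 5 inhibitory neuron markers, 2 were higher and 1 was lower, with Pvalb at 15.5 and 16.0 RPKM in WT and 21.2 and 19.1 RPKM in KI. Of 4 thalamus markers, Rgs16 was higher (ratio 1.58) and 2 were lower. Of 3 choroid plexus markers, Kl was higher (ratio 1.37), and Ttr was at 51.3 RPKM in KI replicate 1 and between 8.13 and 13.8 RPKM in the other samples. None of the 52 markers was at 0 in every sample. Of the 49 that passed the filter, 0 were called in limma and 17 had an unadjusted p under 0.05, against 9.62% of all genes tested. Of the 17, 12 were higher and 5 were lower in KI, against 6.3% and 3.33% of all genes. Of these 49, 18 were higher and 13 lower in both KI samples (36.7% and 26.5%, against 24% and 18.1%). The part of these differences in the values of Arc, Npas4, Fos, Egr3 and the other members was not tested.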

How the data were processed

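RNA-seq reads of hippocampal poly(A) RNA were aligned by the authors to mm10 with GSNAP, uniquely and properly mapped pairs were kept, and RPKM values the authors deposited per gene of Ensembl release 74 were used, 1 file per sample. The counting tool is not given in the sources used here. A gene absent from a file was set to 0. Symbols, positions and exon lengths were from GENCODE M21 (GRCm38, the build of mm10), which named all but 599 genes. Estimated reads per gene came from the whole-read steps and these lengths, whole within 0.01 in every sample for 17 members and approximate for the rest.

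The study tested counts. The deposited values are RPKM, so limma 3.58.1 (R 4.3.3) was fitted to log2(RPKM + 1) of genes that reached 0.5 RPKM in 2 or more samples. The variance followed a trend with level, p-values were adjusted after Benjamini and Hochberg, and calls needed an adjusted p under 0.1 and 1.2-fold. The code was tested on simulated data, with recovery required only for larger changes than those of the members and more samples per group. What it recovers at the group size used here is not given, so the absence of calls does not show that levels were equal. Python 3.11.15, pandas 2.3.3 and matplotlib 3.10.9 served for the rest. Alternatives were a pseudocount of 0.1, no filter, at least 10 reads, 2 other scalings, no trend, the replicate block, other thresholds and leaving out each sample. The members, lists and tests were chosen with earlier results of these data known. Every member is named. Every sample's value is given for Fos, Arc, Egr1 and Npas4, for members with groups apart and a ratio of 1.2, and for the highest member of each role; of a list, genes apart at 1.2 and the highest and lowest fold changes are named. Some further values are given in the text for genes chosen after their values were seen. The labels do not say that samples of a group are separate litters, so p-values measure the spread between these samples. The values of 1 upstream regulator are not reported here. Promoter windows are from RefSeq (GRCm38.p6).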

Additional observations from a re-analysis of the deposited data

How the results depend on the processing

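The count of members past the threshold was 0 under a pseudocount of 0.1, no filter, at least 10 reads in every sample, both other scalings, no mean-variance trend, 1.5-fold, an adjusted p under 0.05 and each sample left out, and it was also 0 with the replicate block. Deviations of samples sharing a replicate number had a correlation of -0.025 over the 18436 genes, which does not pair them. Members higher in both KI samples numbered 10 and, with 1 sample left out, from 13 to 19, and members lower numbered 6 and from 8 to 13, where fewer values have to be apart. With 1 sample left out, from 37.9% to 39.6% of all genes were higher and from 30.5% to 33.8% were lower. The median log2 fold change of the members was 0.04, with a range of 0.020 to 0.12 when a sample was left out. Of 132 values of the 12 members given in full under the alternatives, 1 turned: Klf10 was at -0.070 without KI replicate 2 (0.15 without KI replicate 1). The groups of 9 of the 12 do not overlap, so leaving out a sample could not turn them. The median over all genes was 0.013, and it was -0.0012 under median-ratio scaling and -0.0093 under quantile normalization. The shares of all genes higher and lower in both KI samples were 24.0% and 18.1%. They were 20.9% and 21.3% under median-ratio scaling and 19.2% and 22.9% under quantile normalization. Over all genes, calls numbered 0, and 20 without the trend and 1 with at least 10 reads. Atf3 and Maff rest on the fewest reads, from 7 to 20 a sample. What depth does to the comparisons was not tested.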
